A study of Mus musculus with 57 samples.

Results

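The genes described here carry glucose into the heart muscle cell and break it down to pyruvate and lactate. They are 10 genes chosen by symbol: the glucose transporters *Slc2a1* and *Slc2a4*, the hexokinases *Hk1* and *Hk2*, the phosphofructokinase *Pfkm*, its regulators *Pfkfb2* and *Pfkfb3*, the pyruvate kinase *Pkm*, and the lactate dehydrogenases *Ldha* and *Ldhb*. The rule names them by symbol and uses no measured value. All 10 were listed among the 25416 genes of the acute count table and the 54658 genes of the chronic one. All 10 also passed the low-count filter in both studies, with 14240 and 14960 genes tested in all.

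Heart RNA of male C57BL6/J mice was sequenced in an acute and a chronic study of doxorubicin (Doxo), an anthracycline chemotherapy that damages the heart, with or without nicotinamide mononucleotide (NMN), a precursor of NAD+. In the acute study, 14 Ctrl mice received saline, 13 Doxo mice a single i.p. injection of 20 mg/kg, and 13 Doxo-NMN mice the same injection plus 180 mg/kg NMN per day, injected i.p. from 5 days before Doxo. Mice had been bought at 9 weeks of age and hearts were taken on day 5. In the chronic study, mice 14 to 16 weeks old received 5 injections of PBS (5 Ctrl) or of 4 mg/kg Doxo, 20 mg/kg in all (6 Doxo), or the same Doxo plus 500 mg/kg NMN per day in the drinking water from 5 days before Doxo (6 Doxo-NMN), and hearts were taken on day 60. No group received NMN alone, and hearts could come only from mice alive at collection. Regimen, route of NMN, age, supplier, day of collection and sequencing laboratory all differed between the studies and cannot be told apart.

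Glucose enters cardiomyocytes through GLUT1, encoded by *Slc2a1* and present at the cell surface without insulin, and through GLUT4, encoded by *Slc2a4* and moved to the surface by insulin or contraction. Hexokinase traps it by phosphorylation, and phosphofructokinase commits it to glycolysis. PFKFB enzymes make and break down the sugar bisphosphate that activates phosphofructokinase, *Pfkfb2* being the main heart isoform and *Pfkfb3* a low-abundance isoform with a strong bias to the kinase reaction that stress and hypoxia are known to induce. Pyruvate kinase forms pyruvate, and lactate dehydrogenase converts it to and from lactate with NADH and NAD+. The adult heart burns mainly fatty acids, and GLUT4, HK2 and lactate dehydrogenase B are typical of adult heart, whereas GLUT1 and HK1 are more prominent before birth.

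The stretches of DNA just before the start sites are shown for 4 members known as targets of hypoxia and Myc signalling, among them *Slc2a1* and *Pfkfb3*, whose transcripts changed most in acute Doxo hearts. RefSeq windows of 300 bases (GRCm38.p6, from 250 bases before to 50 bases after an annotated start) were found for 9 of the 10 members, 18 windows in all, and *Slc2a4* had no entry. The letters ACGTG, core of the hypoxia response element, or their reverse complement CACGT, were in 11 of the 18 windows (61.1%), spread over 8 of the 9 members, and in 19.6% of all 32851 windows. The palindrome CACGTG, the E-box read by Myc, holds both of these and was in 4 of the 18 (22.2%) and in 7.15% of all windows. Several windows belong to 1 gene, so the 18 are not independent, and a match is only a description of the letters. The 250 bases before the start are printed 5′ to 3′ on the gene's own strand, with each match in capitals. *Slc2a1* had a single match 36 bases before its start (chr4:119108495-119108744, plus strand), *Hk2* had matches 226 and 52 bases before (chr6:82774455-82774704, minus strand), the 2 *Pfkfb3* windows had them 60 bases before the upstream start (chr2:11553930-11554179, minus strand) and, as a CACGTG, 53 bases before a downstream one (chr2:11502091-11502340, minus strand), and *Ldha* held a CACGTG 145 and another 48 bases before its upstream start as well as a CACGT 34 bases before it (chr7:46845554-46845803, plus strand). The window before the downstream *Ldha* start (chr7:46846832-46847081) held no match and is not printed.
*Slc2a1*: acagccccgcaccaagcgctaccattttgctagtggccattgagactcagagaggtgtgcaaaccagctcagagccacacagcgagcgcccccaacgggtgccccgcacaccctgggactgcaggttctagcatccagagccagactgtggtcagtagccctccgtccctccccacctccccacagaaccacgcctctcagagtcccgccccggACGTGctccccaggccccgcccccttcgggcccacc
*Hk2*: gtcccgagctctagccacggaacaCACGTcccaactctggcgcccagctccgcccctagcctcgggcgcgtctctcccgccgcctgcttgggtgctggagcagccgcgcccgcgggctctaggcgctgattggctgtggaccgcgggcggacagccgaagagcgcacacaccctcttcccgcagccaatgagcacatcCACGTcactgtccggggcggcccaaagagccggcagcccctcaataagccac
*Pfkfb3*, upstream start: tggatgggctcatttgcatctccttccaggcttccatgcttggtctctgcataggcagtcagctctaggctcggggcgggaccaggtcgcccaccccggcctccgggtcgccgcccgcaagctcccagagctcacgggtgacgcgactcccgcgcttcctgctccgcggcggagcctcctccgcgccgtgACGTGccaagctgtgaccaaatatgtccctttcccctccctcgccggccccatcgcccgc
*Pfkfb3*, downstream start: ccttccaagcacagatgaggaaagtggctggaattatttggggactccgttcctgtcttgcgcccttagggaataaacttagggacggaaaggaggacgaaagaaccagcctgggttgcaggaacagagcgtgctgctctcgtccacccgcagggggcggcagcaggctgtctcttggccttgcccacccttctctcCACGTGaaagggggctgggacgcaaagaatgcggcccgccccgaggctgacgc
*Ldha*, upstream start: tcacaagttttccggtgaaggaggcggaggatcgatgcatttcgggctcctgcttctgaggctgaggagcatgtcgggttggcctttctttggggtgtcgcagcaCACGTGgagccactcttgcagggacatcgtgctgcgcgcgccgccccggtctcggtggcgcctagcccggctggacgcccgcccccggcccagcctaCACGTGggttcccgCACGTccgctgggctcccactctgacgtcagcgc

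Levels are given as CPM, gene counts scaled to a common normalized library size. Total counts ran from 32409622 to 52102850 in the 40 acute hearts and from 17769886 to 23862287 in the 17 chronic hearts, so that 3 counts, taken as the smallest detectable value, were 0.0576 to 0.0926 CPM and 0.126 to 0.169 CPM, which covers counting error only. Some libraries stood apart. On a scale over all tested genes with the Ctrl mean at 0 and the Doxo mean at 1, the acute library labelled Doxo replicate 6 lay at 0.0277, inside the Ctrl range of −0.0401 to 0.0931, and the remaining 12 Doxo values ran from 0.410 to 1.46. The library stayed in all fits unless stated. In the chronic study the skeletal muscle markers *Myh1*, *Myh4*, *Actn3* and *Pvalb* summed to 1516 CPM in Ctrl replicate 1 and 1268 CPM in Ctrl replicate 2 against 271 to 631 CPM in the other 15 hearts. In acute hearts they summed to only 0.0880 to 2.19 CPM in Ctrl, 0.150 to 2.84 in Doxo and 0.165 to 2.71 in Doxo-NMN. Every chronic heart thus stood above every acute heart in these markers, and their part in the differences between the studies was not tested. Chronic Doxo replicate 2 had 23152 CPM of *Myh7*, the slow myosin heavy chain, against 345 to 1884 CPM in the other chronic hearts, a gene chosen after its values were seen. Markers of atrial muscle also separated the acute hearts: 8 Ctrl, 5 Doxo and 4 Doxo-NMN hearts had at least 100 CPM of the atrial myosin light chain *Myl4*. Results within a *Myl4* class rest on this cutoff. Doxo replicate 13 was classed as low at 93.1 CPM, where the other Doxo hearts of that class had 2.77 to 8.36 CPM.

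In acute Ctrl hearts the level per kilobase of exon fell from 807 ± 101 CPM per kb (SD, n = 14) of *Ldhb* through 341 of *Pfkm*, 219 of *Pkm*, 160.0 of *Ldha*, 106 of *Slc2a4*, 70.5 of *Hk2*, 23.3 of *Hk1* and 9.92 of *Pfkfb2* to 3.64 ± 0.390 of *Slc2a1* and 1.24 ± 0.242 of *Pfkfb3*. Each neighbouring pair in this order differed by more than the larger of its standard deviations. The *Slc2a4* transcript thus stood above that of *Slc2a1* and the *Hk2* transcript above that of *Hk1*, and chronic Ctrl hearts had the same order. In acute Doxo hearts the order was the same down to *Hk1*, with *Pkm* and *Ldha* no longer a standard deviation apart, and *Slc2a1* (9.49 CPM per kb), *Pfkfb3* (8.62) and *Pfkfb2* (6.67) lay within a standard deviation of one another. Part of the spread in Ctrl hearts followed the atrial markers. The 6 Ctrl hearts low in *Myl4* had 1179 to 1275 CPM of *Pfkm* against 1009.7 to 1147 CPM in the 8 high ones, and the ranges did not overlap either for *Slc2a4* (381 to 422 against 302 to 376 CPM), *Pkm* (1158 to 1249 against 927 to 1128 CPM), *Pfkfb2* (77.2 to 89.1 against 51.6 to 72.4 CPM) and *Pfkfb3* (6.98 to 8.38 against 8.72 to 12.5 CPM), a comparison made after the values were seen. How many of all tested genes separate in this way was not counted, so it cannot be read as a trait of these genes. The tests were also run within each *Myl4* class.

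**Figure D1:**
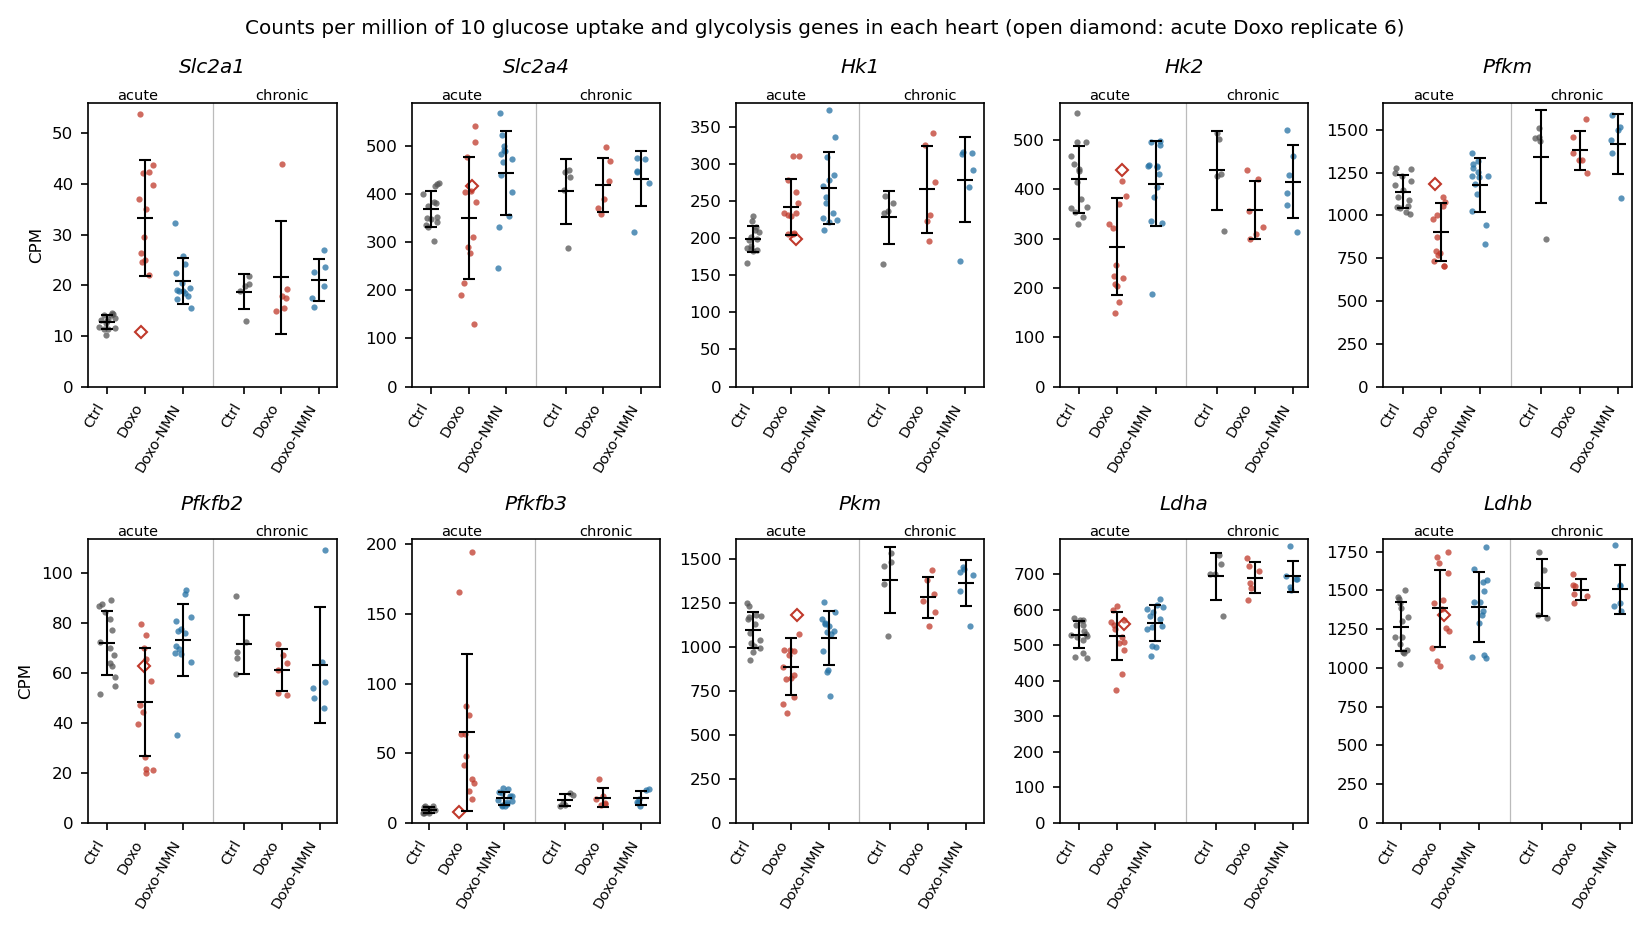
CPM of each of the 10 genes (vertical axes, starting at 0) in every heart, 1 panel per gene, with the acute groups on the left and the chronic groups on the right of each panel. Points are hearts, horizontal marks and bars are group means ± SD, and the open diamond is acute Doxo replicate 6. *Pfkfb3* and *Slc2a1* stand highest in acute Doxo hearts, with 12 of 13 above every Ctrl heart, and in the chronic groups 0 of the 10 genes passed the test.

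At day 5 after Doxo, 7 of the 10 genes passed edgeR's quasi-likelihood test in Doxo vs. Ctrl (adjusted p-value under 0.05), 3 higher and 4 lower. *Pfkfb3* and *Slc2a1* rose most, *Hk1* rose slightly, *Hk2*, *Pfkfb2*, *Pfkm* and *Pkm* fell, and *Slc2a4*, *Ldha* and *Ldhb* did not pass. Of all genes tested, 68.1% passed in this comparison (34.8% higher, 33.3% lower), so that 7 of 10 is near the background share. The median log2 fold change of the 10 genes was −0.04, against −0.00157 over all tested genes. With NMN, in Doxo-NMN vs. Doxo, 7 of 10 passed, 5 higher and 2 lower, where 53% of all genes passed (25.7% higher, 27.4% lower) and the median of the 10 genes was 0.19. Both comparisons use the same Doxo hearts. Between Doxo-NMN and Ctrl, 3 of 10 passed, all higher, against 26% of all genes (15% higher, 11.1% lower). When a 1.5-fold difference was required as well, 2 of 10 passed for Doxo against Ctrl, both higher, where 30.1% of all genes did so (14.7% higher, 15.4% lower). Under the same rule 3 of 10 passed for Doxo-NMN against Doxo, where 17.1% of all genes did (8.17% higher, 8.88% lower), and 2 of 10 for Doxo-NMN against Ctrl, where 7.11% did (3.31% higher, 3.79% lower). RNA came from heart tissue of many cell types, in which fewer cells of a type and less RNA per cell cannot be told apart. The summed cardiomyocyte markers (*Myh6*, *Tnnt2*, *Tnni3*, *Actc1*, *Myl2*, *Ryr2*) ranged from 54213 to 68086 CPM in Ctrl, from 26682 to 70700.2 in Doxo and from 34434 to 77557 in Doxo-NMN hearts, 4 of the 6 lower and 1 higher in Doxo vs. Ctrl and 4 higher and 1 lower in Doxo-NMN vs. Doxo. Neutrophil markers (*S100a8*, *S100a9*, *Csf3r*) summed to 1.40 to 4.62 CPM in Ctrl, 2.54 to 236 in Doxo and 4.43 to 25.6 in Doxo-NMN hearts, 3 of 3 higher in Doxo vs. Ctrl and 2 of 3 lower in Doxo-NMN vs. Doxo. Macrophage markers (*Cd68*, *Adgre1*, *Csf1r*, *Lyz2*) summed to 151 to 223 CPM in Ctrl, 41.1 to 166 in Doxo and 97.0 to 201 in Doxo-NMN hearts, 3 of 4 lower and 1 higher in Doxo vs. Ctrl. No marker of these 3 lists was at 0 in any heart. Their part in the results below was not tested.

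*Slc2a1* (chromosome 4, 119108711 to 119137983, plus strand, GENCODE on GRCm38), the insulin-independent GLUT1 transporter, rose in acute Doxo hearts. Ctrl hearts had 10.1 to 14.6 CPM (median 12.99), Doxo hearts 10.9 to 53.9 CPM (median 35.1) and Doxo-NMN hearts 15.5 to 32.4 CPM (median 19.0). Of the 13 Doxo hearts 12 were above every Ctrl heart, the exception being replicate 6, and all 13 Doxo-NMN hearts lay above every Ctrl heart and below the Doxo median. The means were 12.8 ± 1.37 (SD, n = 14), 33.3 ± 11.5 (n = 13) and 20.8 ± 4.48 CPM (n = 13). In the edgeR fit *Slc2a1* rose over Ctrl by 1.38 on the log2 scale (standard error 0.140, adjusted p = 2.47e-10), or by 1.46 without replicate 6. *Slc2a1* was lower in Doxo-NMN vs. Doxo (log2 fold change −0.67, standard error 0.140, edgeR adjusted p = 0.000152, −0.75 without replicate 6) and stood above Ctrl with NMN as well (0.71, standard error 0.139, edgeR adjusted p = 0.000265). Within the hearts high in *Myl4* the last difference was 0.45 (edgeR adjusted p = 0.0543).

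*Slc2a4* (chromosome 11, 69942539 to 69948188, minus strand), the insulin-responsive GLUT4 transporter, spread more widely in Doxo than in Ctrl hearts. Its levels were 302 to 422 CPM in Ctrl (median 364), 130.0 to 540.1 CPM in Doxo (median 382) and 246 to 568 CPM in Doxo-NMN hearts (median 472). Doxo hearts lay on both sides of the Ctrl range, 3 above all and 5 below all Ctrl hearts, and their coefficient of variation was 36.1% against 10.1% in Ctrl. The fitted difference in Doxo vs. Ctrl was −0.08 on the log2 scale (95% confidence interval −0.36 to 0.21, edgeR adjusted p = 0.644). *Slc2a4* was higher in Doxo-NMN vs. Doxo by 0.34 (standard error 0.145, edgeR adjusted p = 0.0441), a call that was lost in 15 of the 40 fits that left out a heart (adjusted p from 0.0146 to 0.0812, log2 fold change 0.27 to 0.42), with only the 2 groups compared in the fit (adjusted p = 0.0988), within either atrial class (0.50 in low and 0.02 in high hearts), and with the class as a covariate (0.32, edgeR adjusted p = 0.0533). The hearts whose omission ended the call were Doxo replicates 1, 4, 5, 8, 12 and 13 and Doxo-NMN replicates 1, 4, 5, 6, 8, 9, 11, 12 and 13.

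The 2 hexokinases moved in opposite directions in Doxo hearts. *Hk1* (chromosome 10, 62268855 to 62379908, minus strand), the widely expressed isoform, had 166 to 229.6 CPM in Ctrl (median 199), 199 to 310.4 CPM in Doxo (median 233.5) and 212 to 372 CPM in Doxo-NMN hearts (median 255). All 13 Doxo and all 13 Doxo-NMN hearts were above the Ctrl median, 8 and 9 of them above every Ctrl heart. *Hk1* rose by 0.29 on the log2 scale after Doxo (standard error 0.0789, edgeR adjusted p = 0.00161, 0.31 without replicate 6) and stood 0.43 above Ctrl in Doxo-NMN hearts (standard error 0.0789, edgeR adjusted p = 0.000133), while the difference between Doxo-NMN and Doxo was 0.14 (95% confidence interval −0.02 to 0.30, edgeR adjusted p = 0.139). *Hk2* (chromosome 6, 82725025 to 82774454, minus strand), the insulin-regulated muscle isoform, had 329.7 to 556 CPM in Ctrl (median 425), 148 to 439 CPM in Doxo (median 246) and 187 to 497 CPM in Doxo-NMN hearts (median 446). Of the 13 Doxo hearts 8 were below every Ctrl heart and the highest Doxo heart was replicate 6, whereas 12 of 13 Doxo-NMN hearts were above the Doxo median. *Hk2* fell by 0.57 on the log2 scale in Doxo vs. Ctrl (standard error 0.141, edgeR adjusted p = 0.000551, −0.64 without replicate 6), was 0.54 higher in Doxo-NMN vs. Doxo (standard error 0.144, edgeR adjusted p = 0.00199) and differed by −0.03 between Doxo-NMN and Ctrl (95% confidence interval −0.32 to 0.25, adjusted p = 0.883).

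*Pfkm* (chromosome 15, 98092589 to 98132451, plus strand), the muscle phosphofructokinase that commits sugar to glycolysis, fell in Doxo hearts. It had 1009.7 to 1275 CPM in Ctrl (median 1128), 703 to 1186 CPM in Doxo (median 874) and 831 to 1365 CPM in Doxo-NMN hearts (median 1232). Of the Doxo hearts 9 of 13 were below every Ctrl heart, and 8 of 13 Doxo-NMN hearts were above every Doxo heart. On the log2 scale the difference from Ctrl after Doxo was −0.33 (standard error 0.0794, edgeR adjusted p = 0.000395, −0.37 without replicate 6), Doxo-NMN stood 0.38 above Doxo (standard error 0.0807, edgeR adjusted p = 0.000193), and the remaining difference from Ctrl was 0.05 (95% confidence interval −0.11 to 0.21). *Pkm* (chromosome 9, 59656368 to 59679375, plus strand), which encodes the muscle pyruvate kinase of the last glycolytic step, moved alike, from 1094 ± 103 CPM in Ctrl to 887 ± 159.9 in Doxo and 1050.0 ± 152 in Doxo-NMN hearts, with 7 of 13 Doxo hearts below all Ctrl hearts. Its log2 fold changes were −0.30 (standard error 0.0817, edgeR adjusted p = 0.00135, −0.34 without replicate 6) and 0.24 (standard error 0.0831, edgeR adjusted p = 0.0132), the latter 0.17 within hearts low in *Myl4* (edgeR adjusted p = 0.125). Counts per gene do not separate the splice forms of *Pkm*. Its exons share 767 bases with *Gm49759* and those of *Pfkm* 341 with *Gm26513*, both on the same strand, and how such reads were assigned is not given in the sources used here. On the opposite strand *Pfkm* shares 18 bases with *Senp1*, *Hk1* 157 with *Hk1os* and *Slc2a1* 105 with *Gm12868*, and the strand setting of the counting is not given either.

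The PFKFB isoforms moved apart. *Pfkfb2* (chromosome 1, 130689182 to 130729253, minus strand), the heart isoform, had 51.6 to 89.1 CPM in Ctrl (median 71.1), 19.9 to 79.5 CPM in Doxo (median 47.2) and 35.3 to 93.0 CPM in Doxo-NMN hearts (median 75.7). Below every Ctrl heart were 7 Doxo hearts, and 12 of 13 Doxo-NMN hearts were above the Doxo median. *Pfkfb2* fell by 0.57 in Doxo vs. Ctrl (standard error 0.174, edgeR adjusted p = 0.00392, −0.61 without replicate 6) and was 0.60 higher in Doxo-NMN vs. Doxo (standard error 0.176, edgeR adjusted p = 0.00455). Within hearts high in *Myl4* its Doxo vs. Ctrl difference was −0.19 (edgeR adjusted p = 0.198), against −0.93 within the low hearts (adjusted p = 0.00817). Its exons share 1262 bases with the predicted gene *Gm29427* and 154 bases with *Yod1*, so that part of its counts is uncertain.

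*Pfkfb3* (chromosome 2, 11471433 to 11554077, minus strand), the inducible isoform with high kinase activity, changed most of the 10 genes. It had 6.98 to 12.5 CPM in Ctrl (median 8.97), 7.68 to 194 CPM in Doxo (median 47.7) and 11.99 to 25.5 CPM in Doxo-NMN hearts (median 16.2). All Doxo hearts but 1 were above every Ctrl heart, replicate 6 being the exception at 7.68 CPM, and all 13 Doxo-NMN hearts were below the Doxo median, 11 of them above every Ctrl heart. The mean was 6.97-fold that of Ctrl in Doxo hearts and 1.90-fold in Doxo-NMN hearts. *Pfkfb3* rose over Ctrl by 2.80 on the log2 scale (standard error 0.295, edgeR adjusted p = 4.83e-10), by 2.90 without replicate 6 and by 2.52 without replicate 5, the heart with 194 CPM. With NMN it lay −1.88 from Doxo (standard error 0.292, edgeR adjusted p = 3.98e-06) and 0.92 from Ctrl (standard error 0.283, edgeR adjusted p = 0.0140), the last no longer passing within hearts low in *Myl4* (1.07, adjusted p = 0.138) or with limma's voom (0.90, adjusted p = 0.0513).

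The lactate dehydrogenases showed no call in any acute comparison. *Ldha* (chromosome 7, 46841475 to 46855627, plus strand), the isoform known for forming lactate, averaged 529.7 ± 37.8 CPM in Ctrl, 526 ± 67.5 in Doxo and 563 ± 50.3 in Doxo-NMN hearts, with a Doxo vs. Ctrl difference of −0.01 on the log2 scale (95% confidence interval −0.13 to 0.11, edgeR adjusted p = 0.872). *Ldhb* (chromosome 6, 142490249 to 142507957, minus strand), the main isoform of the oxidative heart, averaged 1267 ± 158, 1385 ± 249 and 1392 ± 224 CPM (0.13, 95% confidence interval −0.05 to 0.30, edgeR adjusted p = 0.186). Both intervals exclude a change of 1.5-fold. *Ldha* has annotated pseudogene copies, *Ldha-ps* and *Ldha-ps2*, and its counts depend on how the authors assigned shared reads.

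**Figure D2:**
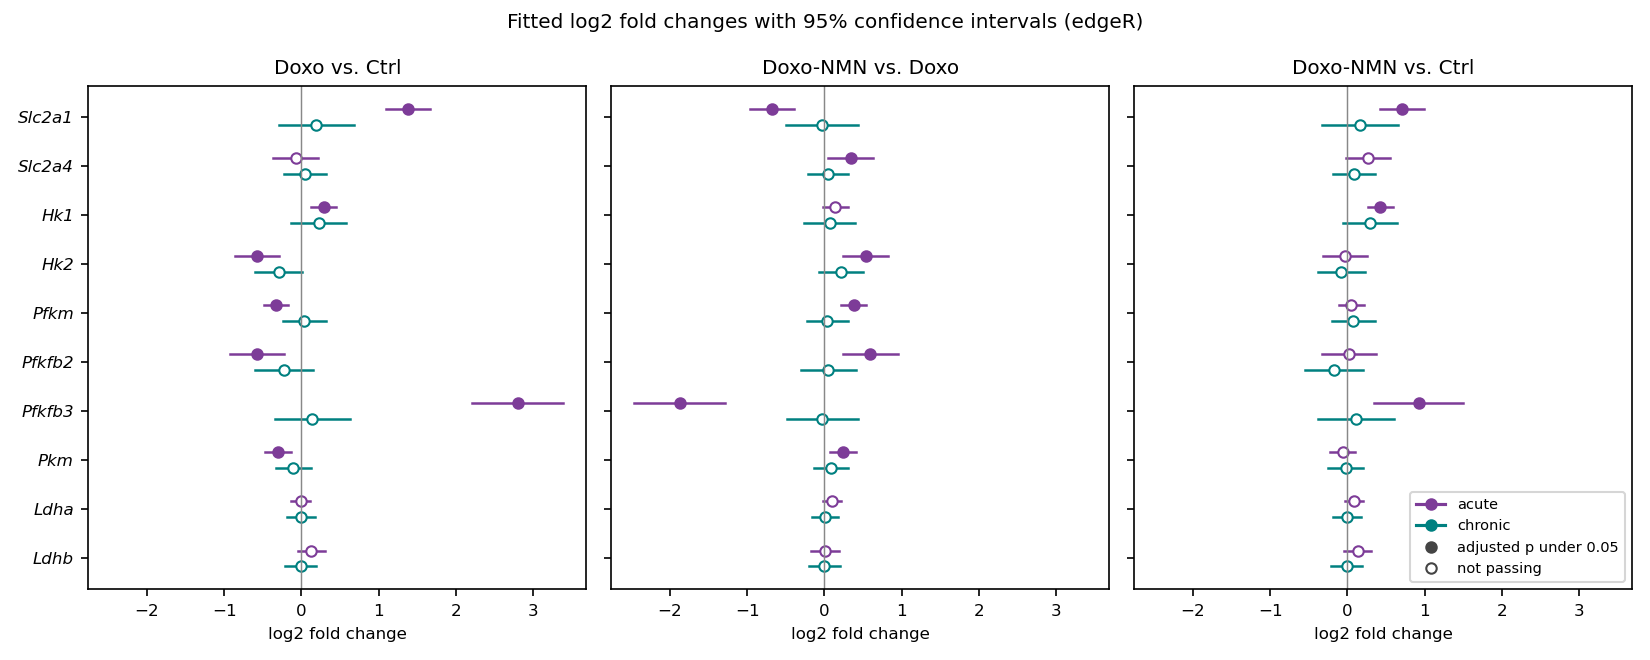
Fitted log2 fold changes (horizontal axes) of the 10 genes (rows) with 95% confidence intervals for the 3 comparisons named above the panels, acute study in purple above chronic study in teal. Filled points passed an edgeR adjusted p of 0.05 and open points did not. *Pfkfb3* (2.80) and *Slc2a1* (1.38) lie far to the right in acute Doxo vs. Ctrl and to the left in Doxo-NMN vs. Doxo (−1.88 and −0.67), and all chronic points are open.

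Ratios between isozymes, computed per length in each heart and given as a description with no test, set the members against each other within a heart. The ratio of *Pfkfb3* to *Pfkfb2* had a median of 0.131 in Ctrl (0.0752 to 0.219), 1.31 in Doxo (0.117 to 7.996) and 0.210 in Doxo-NMN hearts (0.126 to 0.667), so that *Pfkfb3* was the more abundant transcript in the median Doxo heart. Without replicate 6 the Doxo median was 1.37 and the lowest Doxo heart 0.223, above every Ctrl heart. The ratio of *Hk1* to *Hk2* averaged 0.337 ± 0.0519 in Ctrl, 0.668 ± 0.262 in Doxo and 0.474 ± 0.133 in Doxo-NMN hearts. *Hk2* remained the more abundant hexokinase transcript on average, but the highest Doxo heart reached 1.26. *Slc2a1* to *Slc2a4* averaged 0.0347 ± 0.00563 in Ctrl, 0.114 ± 0.0713 in Doxo and 0.05001 ± 0.0250 in Doxo-NMN hearts. *Slc2a4* was the more abundant transcript of the pair in every heart, the highest ratio being 0.281. *Ldha* to *Ldhb* stayed between 0.145 and 0.258 in all 40 hearts.

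**Figure D3:**
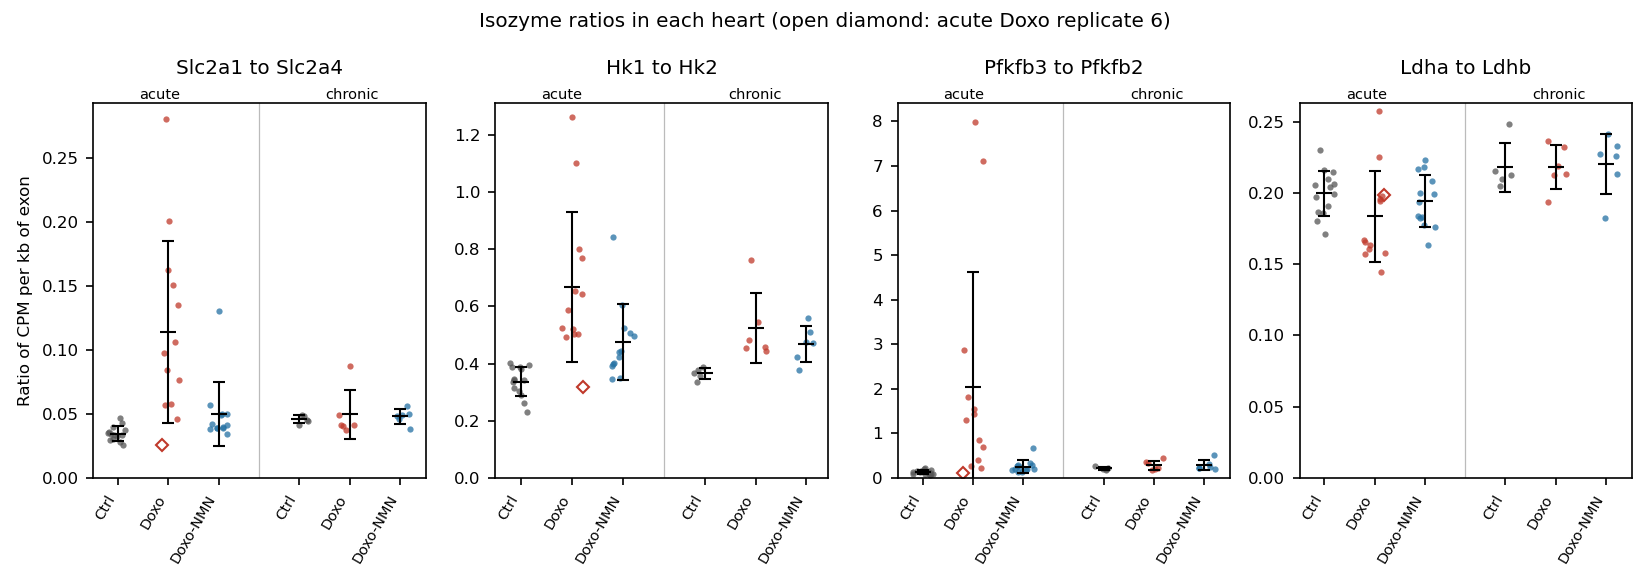
Ratios of isozyme transcripts per length (vertical axes) in every heart of the acute and chronic groups, 1 panel per pair. Points are hearts, marks and bars are group means ± SD, and the open diamond is acute Doxo replicate 6. In acute Doxo hearts *Pfkfb3* to *Pfkfb2* reaches 7.996 and *Hk1* to *Hk2* reaches 1.26, while *Ldha* to *Ldhb* stays in a narrow band.

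The Doxo hearts with most *Pfkfb3* also had most *Slc2a1*. Over the 13 acute Doxo hearts the log2 CPM of both correlated with Pearson's r = 0.924 (permutation adjusted p = 0.00054) and Spearman's rho = 0.912 (permutation adjusted p = 0.00216), over 27 relations of *Pfkfb3* with the other members within the 3 groups. These 13 hearts ran from 0.0277 to 1.46 on the scale over all tested genes. How many of all genes correlate as strongly with *Pfkfb3* among them was not counted, so the relation is not shown to be particular to this pair. Without the 2 hearts farthest from the *Pfkfb3* median (replicates 5 and 6), r was 0.857, and over the 8 Doxo hearts low in *Myl4* it was 0.936. *Hk2* was lower where *Pfkfb3* was higher among Doxo hearts (r = −0.646, rho = −0.676, permutation adjusted p = 0.0382 and 0.0387), but r was −0.438 without those 2 hearts, so the relation rests on them in part, and −0.618 over the 8 hearts low in *Myl4*. *Pfkfb2* gave r = −0.618 and rho = −0.670 (permutation adjusted p = 0.0494 and 0.0400), and −0.587 without them. In Doxo-NMN hearts *Hk2* again went against *Pfkfb3* (r = −0.681, rho = −0.775, permutation adjusted p = 0.0132 and 0.0106, −0.594 without replicates 7 and 10), whereas *Slc2a1* gave r = 0.408 and rho = 0.291 (permutation adjusted p = 0.242 and 0.450), with r = 0.887 over the 9 hearts low in *Myl4*. In the same Doxo-NMN hearts *Pfkm* and *Pkm* had r = −0.701 and −0.738 (permutation adjusted p = 0.0175 and 0.0132) and rho = −0.604 and −0.593 (permutation adjusted p = 0.0756 and 0.0803), and without replicates 7 and 10 their r was −0.434 and −0.562. *Ldha* gave r = −0.652 and rho = −0.549 there (permutation adjusted p = 0.0382 and 0.114), and r = −0.366 without those replicates. Over the 14 Ctrl hearts *Hk2* gave r = −0.686 and rho = −0.701 (permutation adjusted p = 0.0211 and 0.0226), and r = −0.679 over the 6 low in *Myl4*. *Pfkfb2* and *Pfkm* gave r = −0.742 and −0.833 in Ctrl hearts, but −0.282 and −0.278 over those 6, and *Slc2a1* gave 0.181. *Slc2a4*, *Pkm* and *Ldhb* gave −0.706, −0.708 and −0.762, but −0.296, −0.269 and −0.219 over those 6. Pooled Ctrl values mix clusters that differ by atrial markers. The relation of *Hk2* with *Pfkfb3* was thus inverse in Ctrl hearts as well, but within the 6 low ones it was not tested. Doxo-NMN replicate 10 was the lowest of its group in 6 of the 10 genes and the highest in *Slc2a1* (32.4 CPM), and Doxo replicate 5 was the highest of its group in *Slc2a1*, *Pfkfb3* and *Hk1*. On the scale over all tested genes Doxo-NMN replicate 10 lay at 0.909, against 0.237 to 0.567 in the other Doxo-NMN hearts, so it stood apart beyond these genes.

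**Figure D4:**
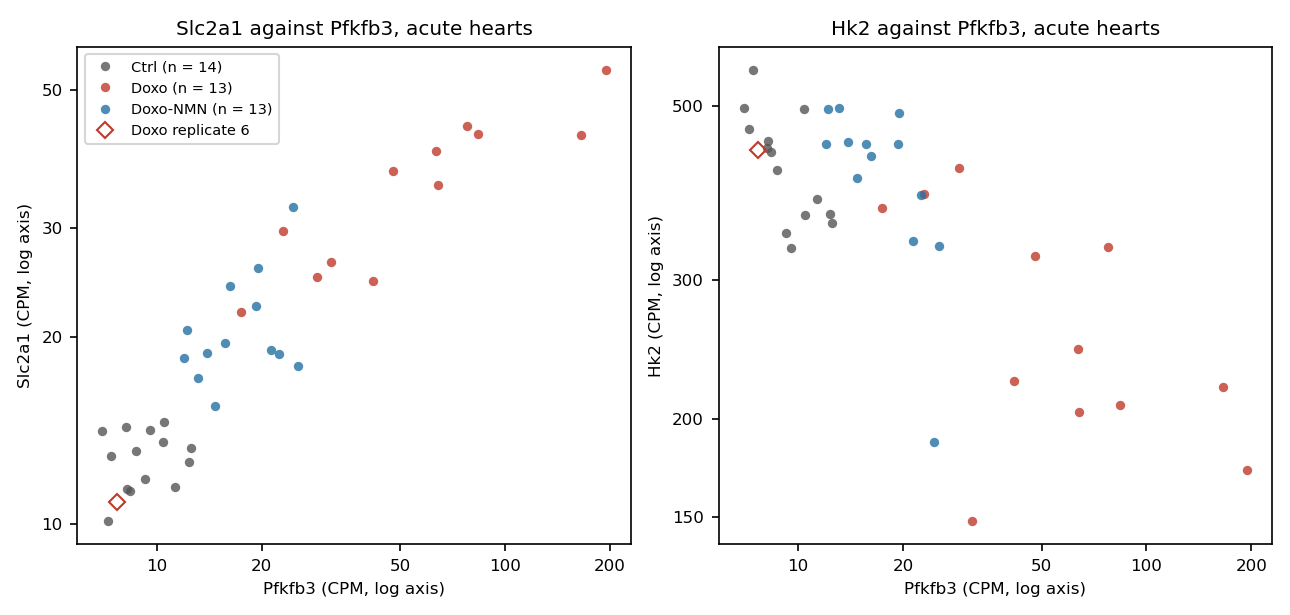
*Slc2a1* (left) and *Hk2* (right) against *Pfkfb3* in the 40 acute hearts, in CPM on log axes, coloured by group, with Doxo replicate 6 as an open diamond. Among Doxo hearts *Slc2a1* climbs with *Pfkfb3* (r = 0.924) and *Hk2* declines (r = −0.646), and replicate 6 lies among the Ctrl hearts.

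Over all 40 acute hearts, the tested genes whose log2 CPM went most nearly with *Pfkfb3* were *Slc10a6* (Pearson's r = 0.981), *Fryl* (0.975) and *AC130815.2* (0.966). For *Slc2a1* they were *Sugp1* (0.969), *Grina* (0.966) and *Pcnt* (0.966). *Hk2* went with *Ttll1* (0.955), the muscle enolase *Eno3* (0.950) and *Mylk4* (0.949), *Pfkfb2* with *Kank2* (0.931) and *Lrrc4b* (0.918), and *Hk1* with *Tmed4* (0.818), the muscle glycogen synthase *Gys1* (0.800) and *Slc4a3* (0.794). *Pkm* went with the mitochondrial ribosomal gene *Mrpl28* (0.953) and the respiratory chain genes *Uqcrc1* (0.951) and *Cyc1* (0.950), *Pfkm* with the sarcoplasmic reticulum gene *Hrc* (0.966), *Rhot2* (0.959) and the ATP synthase gene *Atp5g1* (0.956), and *Ldhb* with the fatty acid oxidation gene *Echs1* (0.963), the ATP synthase gene *Atp5a1* (0.953) and *Ogdhl* (0.932). *Slc2a4* went with *Mccc2* (0.900), *Asb15* (0.879) and *Gpc1* (0.865), and *Ldha* with *Rab1b* (0.913), *Cisd1* (0.899) and *Poldip2* (0.878). These are descriptions over 40 hearts that differ by group, atrial class and depth.

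The rest of the pathway was read from 71 further genes of glucose handling, 68 of them tested. In acute Doxo vs. Ctrl 44 of 68 passed (64.7%, against 68.1% of all genes), 22 higher and 22 lower, and their median log2 fold change was −0.05. Among other transporters, the intracellular *Slc2a8* rose by 0.61 on the log2 scale (edgeR adjusted p = 5.69e-07) and the insulin-sensitive *Slc2a12* fell by 1.04 (adjusted p = 2.99e-06). Of the other sugar kinases the liver-type phosphofructokinase *Pfkl* fell by 0.64 (adjusted p = 5.53e-06). Of 12 tested genes for the steps between them 3 rose and 6 fell (75%), among the latter the muscle phosphoglycerate mutase *Pgam2* (−0.77) and *Bpgm* (−0.77), which makes the regulator of haemoglobin and is abundant in red cells. The summed red cell markers *Hba-a1*, *Hbb-bs*, *Hbb-bt* and *Alas2* were 397 to 3913 CPM in Ctrl, 0.954 to 305 CPM in Doxo and 0.209 to 2.48 CPM in Doxo-NMN hearts. The highest Doxo value was that of replicate 6, and the group medians were 1008, 1.93 and 1.29 CPM. All 4 markers were lower in both groups against Ctrl and, with replicate 6 included, in Doxo-NMN vs. Doxo. Their part in the result for *Bpgm* was not tested.

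Pyruvate and lactate handling gave 4 higher and 7 lower of 16 in acute Doxo vs. Ctrl (68.8%, where 68.1% of all genes passed, 34.8% higher and 33.3% lower). The pyruvate dehydrogenase kinase *Pdk1*, which restrains the entry of pyruvate into the citrate cycle, rose by 0.45 (edgeR adjusted p = 1.81e-05) and the mitochondrial pyruvate carrier *Mpc1* by 0.34 (adjusted p = 7.75e-05). Of 7 glycogen genes 4 rose and 1 fell (71.4%), near the share of all genes, with the branching enzyme *Gbe1* higher by 0.92 on the log2 scale. In the pentose phosphate branch 1 of 7 rose and 2 fell (42.9%), the isomerase *Rpia* (−1.21) and the epimerase *Rpe* (−0.77). Of 15 regulators 8 rose and 1 fell (60%, below the 68.1% of all genes), led by the insulin receptor substrate *Irs2*, from 14.9 to 168 CPM (log2 fold change 3.49, edgeR adjusted p = 1.00e-10), and the transcription factor *Myc*, from 3.21 to 25.4 CPM (2.98, adjusted p = 8.26e-10).

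With NMN, in Doxo-NMN vs. Doxo, 33 of the 68 passed (48.5%, against 53% of all genes), 21 higher and 12 lower. *Myc* was lower (log2 fold change −2.05, edgeR adjusted p = 3.79e-06), as was *Pdk1* (−0.34), and the enolase *Eno3* (0.72), *Pgam2* (0.57), *Pfkl* (0.74), *Slc2a12* (0.78), the lactate and pyruvate transporter *Slc16a7* (0.63), *Rpia* (0.88) and *Rpe* (0.50) were higher. The glycogen phosphorylase *Pygb* (−0.42) and the arrestin-domain gene *Arrdc4* (−0.79), a relative of the uptake inhibitor *Txnip*, were lower. *Slc2a8* did not pass (−0.18, adjusted p = 0.112).

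Against Ctrl, 18 of 68 passed in Doxo-NMN hearts (26.5%, against 26% of all genes), 13 higher and 5 lower. *Irs2* was still higher by 2.12 (64.9 CPM, edgeR adjusted p = 8.69e-06), and *Eno1* (0.36), *Gys1* (0.34), *Pdk2* (0.26), *Pgls* (0.23) and *Slc2a8* (0.43) were also higher. *Pdk4*, the fasting-induced pyruvate dehydrogenase kinase, was lower (−1.47, 379 against 1051 CPM, adjusted p = 0.0104), as were *Bpgm* (−0.82), *Pfkfb4* (−0.38) and *Arrdc4* (−0.94). *Slc2a10*, *Tigar*, *Gbe1* and *Rpe*, the next in their lists, did not pass (adjusted p = 0.0776, 0.0572, 0.139 and 0.0922). The count of 18 was 28 with only the 2 groups in the fit, where 39.7% of all genes passed, 10 within the hearts low in *Myl4*, where 7.88% did, and 7 within those high in it, where 9.12% did.

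**Figure D5:**
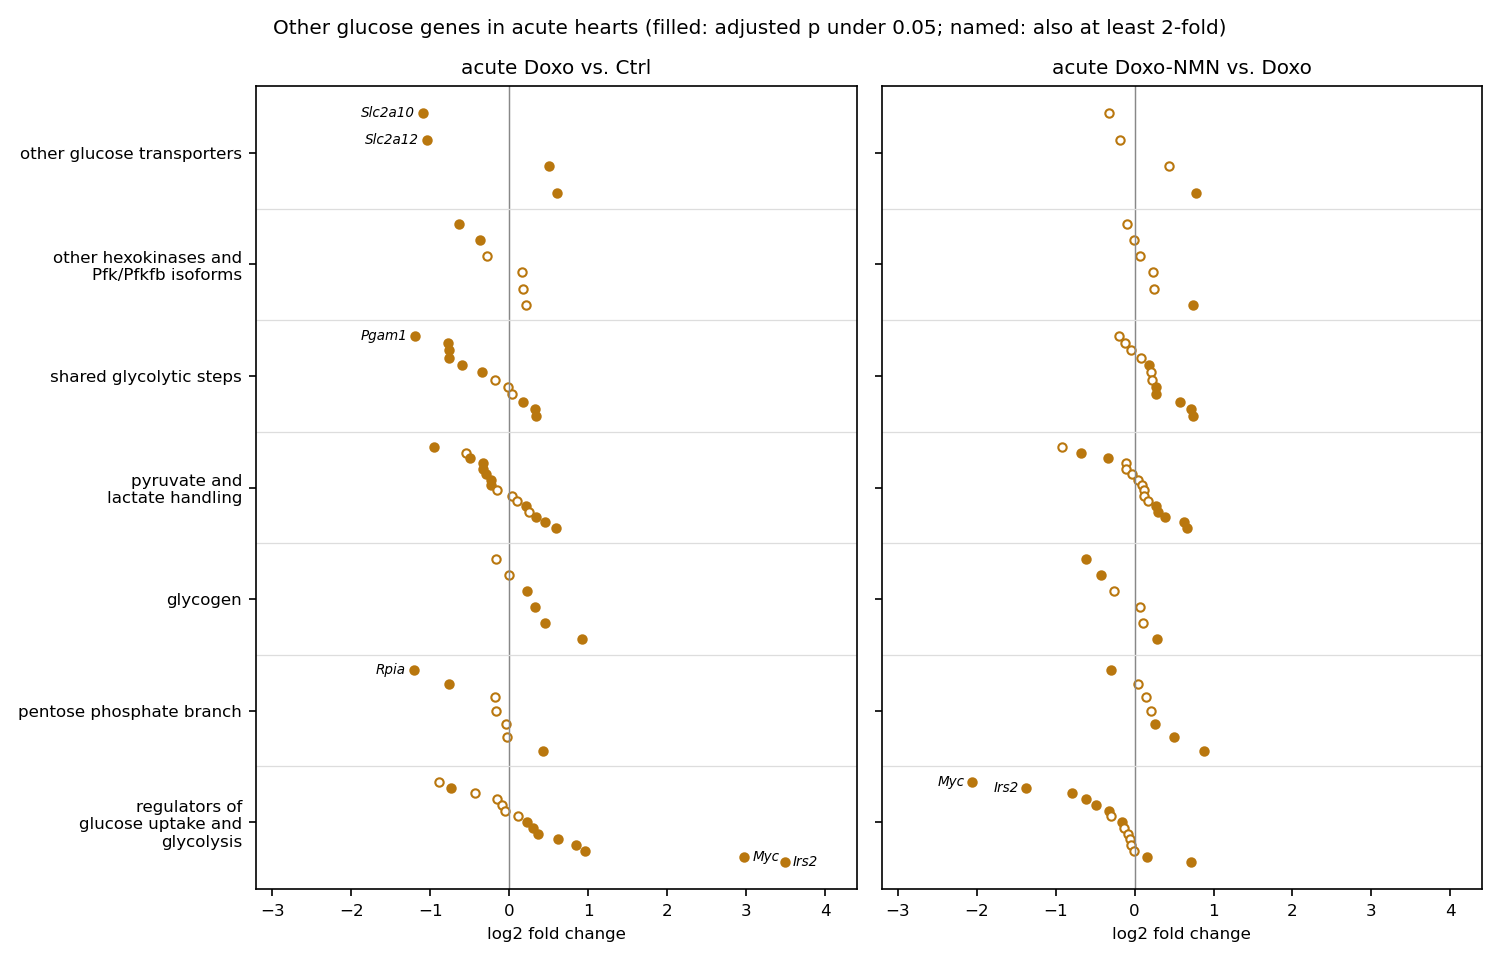
Acute log2 fold changes (horizontal axis) of 66 of the 68 tested further glucose genes in Doxo vs. Ctrl (left) and Doxo-NMN vs. Doxo (right), in rows by role and ordered within a role. Filled points passed an edgeR adjusted p of 0.05, and those of at least 2-fold carry their symbol. *Irs2* (3.49) and *Myc* (2.98) lie farthest right in Doxo vs. Ctrl and *Rpia* (−1.21) farthest left.

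In the chronic study 0 of the 10 genes passed in any comparison by edgeR, by DESeq2 or by voom, and 0 had an unadjusted p under 0.05 in any of the 3 edgeR comparisons. The background was as low: 0.0602% of all genes passed in Doxo vs. Ctrl (0.0535% higher, 0.00668% lower), 0% in Doxo-NMN vs. Doxo and 0.0401% in Doxo-NMN vs. Ctrl. *Hk2* had the largest difference in Doxo vs. Ctrl, with 315, 515, 432, 427 and 503 CPM in Ctrl, 439, 299, 422, 309, 355 and 324 CPM in Doxo and 393, 467, 521, 314, 429.7 and 369 CPM in Doxo-NMN hearts. The groups overlapped, 2 of 6 Doxo hearts lying below every Ctrl heart, and the log2 difference was −0.29 (95% confidence interval −0.60 to 0.01, edgeR adjusted p = 0.647). *Hk1* differed by 0.22 (−0.13 to 0.57). The ratio of *Hk1* to *Hk2* was 0.445 to 0.761 in the 6 Doxo hearts against 0.335 to 0.388 in the 5 Ctrl hearts, a description chosen after its values were seen. The 6 Doxo-NMN hearts had 0.377 to 0.557, overlapping both. How many pairs of genes separate Doxo from Ctrl hearts in this way was not counted, so the separation cannot be read as a trait of these genes. The other 8 genes lay between −0.22 (*Pfkfb2*) and 0.20 (*Slc2a1*). Differences of the 10 genes ran from −0.03 to 0.21 in Doxo-NMN vs. Doxo and from −0.17 to 0.29 in Doxo-NMN vs. Ctrl. Of the 68 further glucose genes tested, 0 passed in each chronic comparison by edgeR, and 9, 0 and 1 had an unadjusted p under 0.05. Of all 14960 genes tested, 1174, 441 and 707 had an unadjusted edgeR p under 0.05 in the same comparisons.

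*Slc2a1* had 12.9, 20.3, 19.9, 18.8 and 21.8 CPM in chronic Ctrl, 17.9, 43.9, 17.6, 14.96, 19.3 and 15.6 CPM in Doxo, and 19.9, 22.6, 26.99, 15.6, 17.5 and 23.6 CPM in Doxo-NMN hearts. *Pfkfb3* had 21.7, 20.3, 12.1, 12.98 and 14.7 CPM in Ctrl, 14.05, 31.2, 17.5, 19.1, 13.6 and 12.9 CPM in Doxo, and 24.3, 17.4, 14.03, 23.3, 11.97 and 14.998 CPM in Doxo-NMN hearts. The single high Doxo heart in both genes was replicate 2, the heart with 23152 CPM of *Myh7*. In Doxo vs. Ctrl the log2 difference was 0.20 (95% confidence interval −0.30 to 0.69) for *Slc2a1* and 0.14 (−0.35 to 0.63) for *Pfkfb3*, and without Doxo replicate 2 they were −0.14 and −0.08. Both main intervals exclude the acute log2 fold changes of 1.38 and 2.80. Leaving out Ctrl replicates 1 and 2, which stood apart in skeletal muscle markers, gave 0 of 10 passing as well, with *Hk2* at −0.34 (unadjusted p = 0.0351, edgeR adjusted p = 0.733) and *Pfkfb3* at 0.44. *Pfkm* in Ctrl replicate 1 was 864 CPM, against 1437 to 1511 CPM in the other 4 Ctrl hearts.

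The effects of Doxo in the 2 studies were compared directly with an edgeR interaction test over the Ctrl and Doxo hearts of both. *Pfkfb3* rose more in the acute study, by 2.65 on the log2 scale (95% confidence interval 1.53 to 3.76, edgeR adjusted p = 0.00332), and *Slc2a1* by 1.18 (0.57 to 1.78, adjusted p = 0.00878). These were 2 of 10 genes, against 19.3% of all 14965 genes tested (11% with the higher effect in the acute study, 8.33% with the lower). The others did not pass, with differences from −0.37 for *Pfkm* (adjusted p = 0.0796) to 0.14 for *Ldhb*, and *Pfkm* did pass without acute Doxo replicate 6 (−0.41, adjusted p = 0.0332). Without chronic Doxo replicate 2 the differences were 2.88 for *Pfkfb3* and 1.52 for *Slc2a1*. Since the simulated data gave too many calls where the spread differed between the studies, the difference was also taken from separate fits. These gave 2.66 for *Pfkfb3* (separate-fit adjusted p = 0.00293) and 1.19 for *Slc2a1* (separate-fit adjusted p = 0.0101). Of all 13195 genes tested in them 25.4% passed, more than the 19.3% above, so they were not a stricter test.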

How the data were processed

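Heart RNA from 40 acute and 17 chronic mice was sequenced after poly(A) selection. The deposited values are raw read counts per gene, which the authors made with STAR 2.7.3a and featureCounts 2.0.0 on mm10 (per the submitters' processing notes, the study's methods naming another STAR release). The strand setting, the handling of reads that match several genes and the annotation are not given in the sources used here. Among counts of 1 to 20, 73.6% were even in the acute table and 40.3% in the chronic one, and an alternative with acute counts divided by 2 was therefore run.

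Each study was fitted separately, its 3 groups together, in R 4.3.3 with edgeR 4.0.16 (filterByExpr by group, TMM normalization, quasi-likelihood F-test), with Benjamini-Hochberg adjustment across the whole tested table. A gene passed at an adjusted p under 0.05, and counts with a fold change of at least 1.5 are given too. The acute and chronic Doxo effects were compared by an interaction term in a joint fit without the Doxo-NMN hearts. CPM use TMM-normalized library sizes, and exon lengths and positions come from GENCODE vM21 (GRCm38). Correlations used log2 CPM with 100000 permutations (Python 3.11.15, scipy 1.17.1, numpy 2.4.6, pandas 2.3.3). Promoter windows are from RefSeq (GRCm38.p6). The fits were tested on simulated data.

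All 10 genes are named in every comparison, with, from each list of further glucose genes, the 2 of smallest adjusted p in each acute comparison and the 3 genes most correlated with each member, except 2 genes that are not reported here. Members and lists were chosen with earlier results of these data known. The alternatives were DESeq2 1.42.0, limma 3.58.1 (voom), RLE size factors, other low-count filters, the compared groups only, the replicate number as a block, halved counts, atrial class, and each heart left out. The labels number the samples without naming animals, so p-values measure only the spread between these samples. The lowest chi-square per gene between hearts of a group was 10.3 (acute) and 5.30 (chronic), so no library appeared to be deposited more than once within a group. Pairs of hearts from different groups were not checked in this way. Columns of no sample in this series were 0.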

Additional observations from a re-analysis of the deposited data

Results flagged for a closer look

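Of the 42 sets of chronic values tested (each gene and each isozyme ratio in each group), 13 had a heart far from the others of its group by Dixon's test. Independent sets of normally distributed values give this in about 1 in 20. The 42 sets are not independent, since the same hearts recur and the ratios reuse the genes. The share over all tested genes was not counted, so the 13 cannot be read as a trait of these genes. Acute groups were too large for this test. Ctrl replicate 1 was low in *Slc2a4* (287 CPM, other Ctrl hearts 409 to 449), *Hk1* (166 CPM, others 234 to 257) and *Pfkm* (864 CPM, others 1437 to 1511), and this heart also stood apart in skeletal muscle markers. Doxo replicate 2 was high in *Slc2a1* (43.9 CPM, others 14.96 to 19.3), *Pfkfb3* (31.2 CPM, others 12.9 to 19.1), the ratio of *Slc2a1* to *Slc2a4* (0.0875, others 0.0379 to 0.0492) and that of *Hk1* to *Hk2* (0.761, others 0.445 to 0.546). Doxo-NMN replicate 4, with 83.8 CPM of the atrial gene *Myl4* against 1.43 to 14.3 CPM in all other chronic hearts, was low in *Slc2a4* (321 CPM, others 424 to 475) and *Hk1* (169 CPM, others 269 to 316) and high in *Pfkfb2* (109 CPM, others 45.9 to 64.4). Single values also stood apart for *Ldha* in Doxo-NMN replicate 5 (779 CPM, others 656 to 694), *Pfkfb3* to *Pfkfb2* in Doxo-NMN replicate 1 (0.508, others 0.206 to 0.311) and *Ldha* to *Ldhb* in Ctrl replicate 2 (0.248, others 0.205 to 0.215).

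The Doxo effect differed between the studies by the edgeR interaction test for *Pfkfb3* (acute minus chronic log2 fold change 2.65) and for *Slc2a1* (1.18).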

How the results depend on the processing

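With a fold change of at least 1.5 required as well, the members passing were 2 in acute Doxo vs. Ctrl and 3 in Doxo-NMN vs. Doxo, in place of 7 and 7. Leaving out each heart in turn gave 7 to 7 in Doxo vs. Ctrl, 6 to 7 in Doxo-NMN vs. Doxo, 3 to 3 in Doxo-NMN vs. Ctrl and 0 to 0 in every chronic comparison. The comparison of the studies gave 2 to 3 when acute Doxo replicate 6 or a chronic heart was left out, the other acute hearts not being left out there. No difference of the 10 genes that passed changed sign under any alternative run. Of the alternatives for these 10 genes' named differences, 942 kept direction and call, 25 lost the call and 2 gained it. Their calls lost other than by leaving out a heart were *Slc2a4* in Doxo-NMN vs. Doxo (compared groups only 0.35, replicate block 0.38 with edgeR adjusted p = 0.0588, low and high *Myl4* 0.50 and 0.02, atrial class as covariate 0.32), *Pfkfb2* in Doxo vs. Ctrl (high *Myl4* −0.19), *Pkm* in Doxo-NMN vs. Doxo (low *Myl4* 0.17) and, in Doxo-NMN vs. Ctrl, *Slc2a1* (high *Myl4* 0.45) and *Pfkfb3* (voom 0.90, low *Myl4* 1.07). The fits within an atrial class hold fewer hearts, and otherwise the cause was not tested. *Slc2a4* passed in Doxo-NMN vs. Ctrl with the compared groups only (0.26, adjusted p = 0.0195). The replicate numbers did not pair the hearts: deviations of same-numbered hearts correlated from −0.624 to 0.584 over 39 acute pairs (18 over 0.1) and from −0.255 to 0.409 over 16 chronic pairs (4 over 0.1). The replicate block changed no call of the 10 genes but that of *Slc2a4*, and the interaction with it was 2.16 for *Pfkfb3* and 1.13 for *Slc2a1*. Of the 68 further genes the replicate block left 42, 32 and 17 passing in the acute comparisons, in place of 44, 33 and 18. Of all genes tested it left 65.9%, 52.1% and 24.3%, in place of 68.1%, 53% and 26%. In the comparison of the studies it left 2 of the 68 in place of 7, where the share of all genes fell from 19.3% to 8.17%. The separate fits, the chronic fits without Ctrl replicates 1 and 2, the ratios without Doxo replicate 6 and the correlations within an atrial class were chosen after seeing the data. Chronic totals of 17769886 to 23862287 counts and 5 to 6 hearts a group limit what could be detected there.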
